A study of Yarrowia lipolytica with 12 samples.

Results

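*AXP1* (YALI0_B05654g) and *RIM101* (YALI0_B13640g) of the dimorphic yeast *Yarrowia lipolytica* were followed by RNA-Seq in 12 libraries. They were taken by gene ID from a set of 3 genes, the secreted proteases *XPR2* (YALI0_F31889g) and *AXP1* and the pH regulator *RIM101*. *XPR2* was not analysed here, so 2 of the 3 genes are described, out of 6400 genes in the count tables. The cells were wild-type PO1a, a strain that needs added leucine and uracil, and its Yl*rep1*Δ and Yl*ngs1*Δ derivatives. Yl*REP1* encodes a transcription factor and Yl*NGS1* its partner in the response to N-acetylglucosamine (GlcNAc). All cells grew in liquid YNB medium with GlcNAc as the sugar and with uracil, to an OD600 of about 0.8. There were 4 groups of 3 libraries: wild type with the empty vector pYL27 (WT-vector), and wild type (WT-4NAG), Yl*rep1*Δ and Yl*ngs1*Δ with the 4NAG plasmid. Both plasmids carry Yl*LEU2*, and 4NAG adds the GlcNAc uptake and breakdown genes Yl*NAG5*, Yl*NGT1*, Yl*NAG1* and Yl*DAC1*, each driven by the promoter of the actin gene Yl*ACT1*, so that mutant cells can use GlcNAc. The study states that the mutants with 4NAG grew more slowly than the wild type. For YNB-GlcNAc medium without buffer it gives a starting pH below neutral, which fell slightly in wild-type cultures with another empty vector. The pH of the sequenced cultures at harvest was not found in the sources used here. No source states that replicates were grown as separate cultures. The p-values therefore reflect the spread among these libraries, which may be technical.

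*Y. lipolytica* secretes different proteases at different ambient pH. *XPR2* encodes the alkaline extracellular protease, a subtilisin-type serine protease made when the medium is neutral to alkaline and preferred carbon and nitrogen sources are scarce. *AXP1* encodes the acid extracellular protease, a pepsin-type aspartyl protease made in acidic medium. *RIM101* encodes the zinc-finger factor called PacC in *Aspergillus nidulans*, which is cut to its active form when the surroundings are alkaline. That cut acts on the protein, so an mRNA level does not show how much active factor a cell holds.

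The libraries held 15667204 to 22650213 counts. The deleted genes did not mark every library as its label does. Yl*REP1* stood at 26.1%, 13.5% and 82.6% of the WT-4NAG mean in replicates 1, 2 and 3 labelled Yl*rep1*Δ. Yl*NGS1* stood at 0.0708% (a count of 1), 22.7% and 47.1% in those labelled Yl*ngs1*Δ. Libraries also resembled each other across the mutant labels: the log2 changes of all genes from the WT-4NAG mean, a baseline they share, had r = 0.934 between replicate 2 of Yl*rep1*Δ and replicate 1 of Yl*ngs1*Δ, against 0.330 to 0.663 among the libraries labelled Yl*rep1*Δ and 0.548 to 0.847 among those labelled Yl*ngs1*Δ. Across the labels r ran from 0.279 to 0.934. Results are therefore given for libraries labelled Yl*rep1*Δ or Yl*ngs1*Δ, and every direction below rests on these labels.

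*AXP1* was expressed at a low level that varied little between the 4 groups. Levels are given as CPM, counts scaled to a common library size with TMM factors of the 12 libraries, with 60 to 108 *AXP1* counts behind each value. In WT-vector, *AXP1* had 3.77, 4.75 and 4.32 CPM (4.28 ± 0.490, SD, n = 3). WT-4NAG libraries had 3.11, 3.98 and 5.31 CPM (4.13 ± 1.11). The lowest and the second highest library of all 12 were therefore replicates of the same group. Libraries labelled Yl*rep1*Δ had 5.27, 3.73 and 5.15 CPM (4.72 ± 0.857). Those labelled Yl*ngs1*Δ had 3.98, 4.13 and 6.09 CPM (4.73 ± 1.18). Every group overlapped with every other, and the highest of the 12 values was 1.96 times the lowest. Exact 95% Poisson intervals on the counts, which cover counting error only, ran from 2.37 to 4.00 CPM for the lowest library and from 4.95 to 7.42 CPM for the highest.

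**Figure D1:**
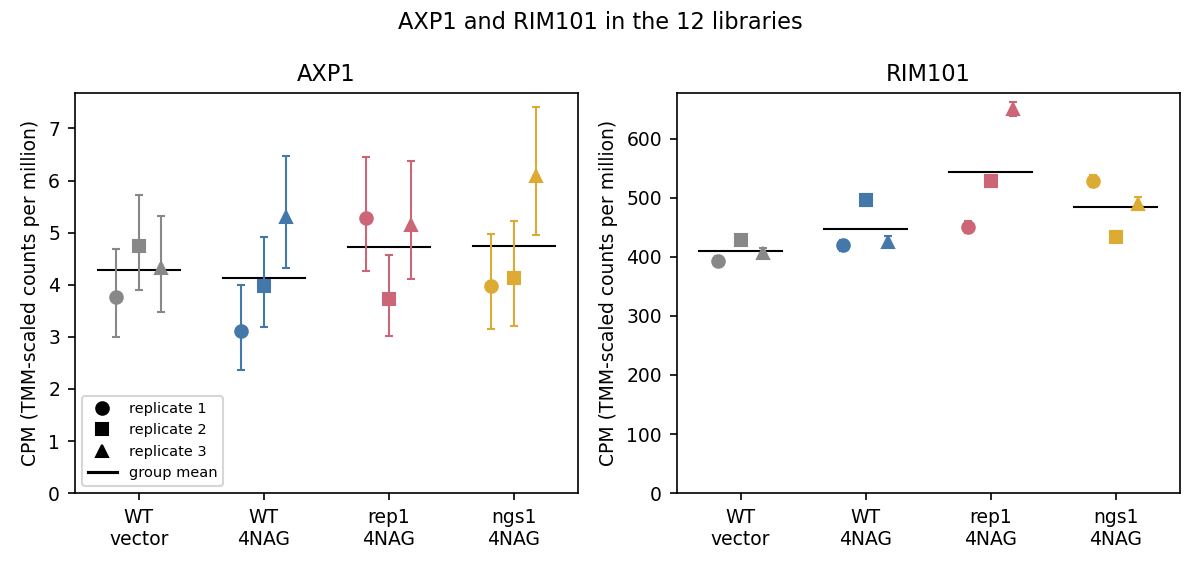
TMM-scaled CPM of *AXP1* (left) and *RIM101* (right), on linear axes from 0, by group. Points are libraries with 95% exact Poisson intervals and bars are group means of 3. *AXP1* lies between 3.11 and 6.09 CPM with all groups overlapping, and the highest *RIM101* value, 649.8 CPM, is Yl*rep1*Δ replicate 3.

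The groups were compared with edgeR's quasi-likelihood test across all genes, and a gene was called at a Benjamini-Hochberg adjusted p under 0.05 with at least a 2-fold change. *AXP1* was not called in any of the 4 comparisons, by edgeR or under any alternative run. Against WT-4NAG, its fold change was 1.14 in libraries labelled Yl*rep1*Δ (95% interval 0.719 to 1.80, edgeR adjusted p = 0.710). In those labelled Yl*ngs1*Δ it was 1.15 (0.725 to 1.84, edgeR adjusted p = 0.650). These comparisons share the WT-4NAG libraries. Libraries labelled Yl*ngs1*Δ against those labelled Yl*rep1*Δ gave 1.00 (0.631 to 1.59, edgeR adjusted p = 1.00). WT-4NAG against WT-vector gave 0.963 (0.690 to 1.34, edgeR adjusted p = 0.920). All 4 intervals lie inside 2-fold either way and include no change, and they differ in width. Differences that lie within an interval could not be told from no change in that comparison.

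The shares over all genes tested show how common these outcomes were. Genes called made up 1.39% of 6041 for Yl*rep1*Δ against WT-4NAG, 7.67% of 6040 for Yl*ngs1*Δ against WT-4NAG and 0.182% of 6043 for WT-4NAG against WT-vector. Between the mutants 0% of 6016 were called by edgeR and 0 by DESeq2, with 15 higher and 13 lower at an unadjusted edgeR p under 0.05 and 2-fold. Both mutant shares moved when single libraries were left out. Without WT-4NAG replicate 1, 2 or 3, 1 gene was called higher and 0 lower for Yl*rep1*Δ, in place of 64 and 20. For Yl*ngs1*Δ, 177 to 193 genes were then called higher and 71 to 83 lower, in place of 324 and 139. Groups that did not overlap were found for 32.7%, 42.8%, 5.62% and 30.1% of genes in Yl*rep1*Δ against WT-4NAG, Yl*ngs1*Δ against WT-4NAG, Yl*ngs1*Δ against Yl*rep1*Δ and WT-4NAG against WT-vector. In the same order, 72.5%, 68.7%, 73.7% and 94.2% of genes had an interval inside 2-fold, so an interval of that width was the usual outcome and is no mark of *AXP1* or *RIM101*.

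*RIM101* was a highly expressed gene with small differences between groups, none of them called. In WT-vector it had 392.2, 428.4 and 406.4 CPM (409.0 ± 18.2, SD, n = 3). WT-4NAG libraries had 419.2, 495.9 and 425.5 CPM (446.9 ± 42.6). Libraries labelled Yl*rep1*Δ had 450.6, 527.8 and 649.8 CPM (542.7 ± 100.4). Replicate 3, the library in which Yl*REP1* stood at 82.6% of the wild-type mean, held the highest *RIM101* value of the 12. Libraries labelled Yl*ngs1*Δ had 528.0, 433.8 and 490.0 CPM (483.9 ± 47.4). With 7256 to 13017 counts per library, counting error alone would give a coefficient of variation of 1.05%, against 15.5% seen over the 12 libraries. Its precision was thus set by the spread between libraries and not by depth.

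From high to low, the *RIM101* means stood in the order Yl*rep1*Δ, Yl*ngs1*Δ, WT-4NAG and WT-vector. No pair of these groups, neighbours or not, was told apart by the edgeR test. Its fold change in libraries labelled Yl*rep1*Δ against WT-4NAG was 1.21 (95% interval 0.926 to 1.59, edgeR adjusted p = 0.338). Without replicate 3 the log2 fold change went from 0.28 to 0.13 (edgeR adjusted p = 0.513). Without replicate 1 it was 0.40 (edgeR adjusted p = 0.0997), the lowest adjusted p of *RIM101* among all alternatives to this comparison. For Yl*ngs1*Δ against WT-4NAG the fold change was 1.09 (0.879 to 1.36, edgeR adjusted p = 0.547). Yl*ngs1*Δ against Yl*rep1*Δ gave 0.891 (0.644 to 1.23, edgeR adjusted p = 1.00). WT-4NAG against WT-vector gave 1.09 (0.993 to 1.20, edgeR adjusted p = 0.232). In these 4 comparisons the groups overlapped.

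Against WT-vector, a comparison added after seeing the data in which deletion and 4NAG plasmid differ together, the groups did not overlap in *RIM101*. All 6 mutant libraries, at 433.8 CPM and above, were higher than the 3 WT-vector libraries, the highest of which had 428.4 CPM. The fold change was 1.34 for libraries labelled Yl*rep1*Δ (95% interval 1.04 to 1.72, edgeR adjusted p = 0.176) and 1.20 for those labelled Yl*ngs1*Δ (0.982 to 1.46, edgeR adjusted p = 0.180). Neither passed the test. Groups that did not overlap were common here too, at 31.4% and 43.2% of genes, with 1.77% and 7.28% called. *AXP1* gave 1.11 (0.757 to 1.62, edgeR adjusted p = 0.744) and 1.11 (0.763 to 1.63, edgeR adjusted p = 0.669) in the same comparisons, with overlapping groups.

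**Figure D2:**
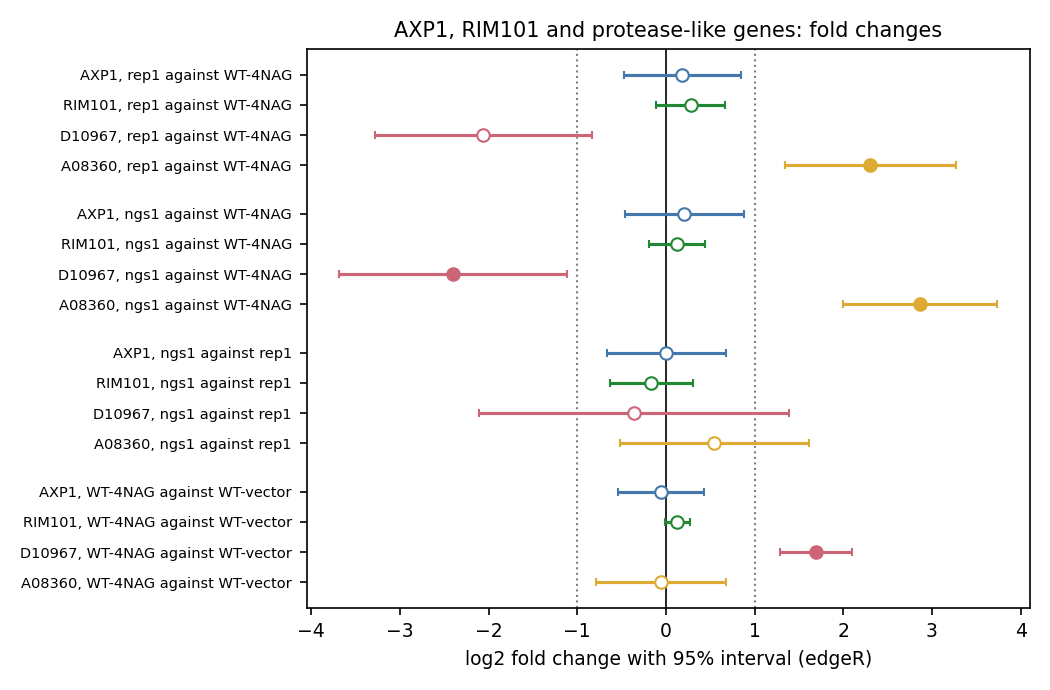
Log2 fold changes (x axis) with 95% edgeR intervals for *AXP1*, *RIM101*, D10967 (acid protease-like) and A08360 (alkaline protease-like) in the 4 comparisons. Filled points were called, open points were not, and dotted lines mark 2-fold. All 8 intervals of *AXP1* and *RIM101* lie between the dotted lines, while D10967 reaches −2.40 and A08360 2.87 in Yl*ngs1*Δ against WT-4NAG.

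Per unit of length, *RIM101* mRNA was far more abundant than *AXP1* mRNA. By the deposited FPKM values, *RIM101* averaged 268.8 over the 12 libraries and ranked 704 of 6400 genes, above 89.0% of them. *AXP1* averaged 3.73 FPKM and ranked 5504, above 14.0%. The median over all genes was 36.2 FPKM, between the pair. Within a library the FPKM of *RIM101* was 54.4 to 96.1 times that of *AXP1* (median 71.0). Both the lowest and the second highest ratio (54.4 and 91.6) came from WT-4NAG, and so the ratio did not separate the groups. In a pooled culture a lower level can come from fewer expressing cells or from less mRNA per cell, and these cannot be told apart.

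*AXP1* had a coefficient of variation of 19.1% over the 12 libraries, where counting error alone would give 10.8%. Of 526 genes with a mean count within 2-fold of its own, 80 (15.2%) varied less, and their median was 28.7%. *RIM101*, at 15.5%, was close to the middle of its peers: 278 of 661 (42.1%) varied less and their median was 17.1%. These peer values are a description with no test.

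The genes whose levels followed *AXP1* and *RIM101* most closely were found by Pearson's r of log2 CPM over the 12 libraries, among 6108 genes. For *AXP1* the 5 highest r were 0.726 to 0.779, led by YALI0_B12518g at 0.779, which ran only from 187.6 to 217.2 CPM. Next came YALI0_C04026g at 0.749, with a mean of 0.930 CPM. For *RIM101* the 5 highest were 0.919 to 0.951, led by YALI0_D00759g at 0.951 (0.466 to 2.23 CPM). YALI0_D09339g, at 0.948, ran from 149.2 to 301.0 CPM and, like *RIM101*, peaked in Yl*rep1*Δ replicate 3. The 12 points share library, depth and group, and each r is among the highest of 6108.

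D10967 (YALI0_D10967g), a gene annotated as similar to the acid extracellular protease that *AXP1* encodes, was called in 2 of the 4 comparisons. It had 7.26, 5.71 and 4.57 CPM in WT-vector and 13.9, 23.3 and 19.6 CPM in WT-4NAG, with no overlap. Its log2 fold change between them was 1.70 (SE 0.19, edgeR adjusted p = 4.89e-05), a call lost when all 12 libraries shared a single fit (edgeR adjusted p = 1.00). Libraries labelled Yl*rep1*Δ had 1.87, 3.24 and 8.69 CPM and those labelled Yl*ngs1*Δ 1.40, 2.45 and 6.95 CPM, all below WT-4NAG. Groups without overlap with WT-4NAG were common, at 30.1% of genes for WT-vector, 32.7% for Yl*rep1*Δ and 42.8% for Yl*ngs1*Δ. Either mutant overlapped with WT-vector, and D10967 was not tested against that group. The falls below are thus from WT-4NAG, where D10967 was itself higher than in WT-vector. In both mutants replicate 3, a library that kept more of the deleted gene's reads, had the most D10967. The fall from WT-4NAG to Yl*ngs1*Δ was called (log2 fold change −2.40, SE 0.54, edgeR adjusted p = 0.0258). That call was lost without Yl*ngs1*Δ replicate 2 (edgeR adjusted p = 0.100) and without WT-4NAG replicate 1, 2 or 3 (0.0688, 0.103 and 0.0879). In Yl*rep1*Δ the value was −2.06 (SE 0.52, edgeR adjusted p = 0.0815), not called by edgeR. DESeq2 called it (adjusted p = 0.000890), as did edgeR without Yl*rep1*Δ replicate 3 (−2.87, adjusted p = 0.00544). Yl*ngs1*Δ against Yl*rep1*Δ gave −0.36 (edgeR adjusted p = 1.00).

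A08360 (YALI0_A08360g), a gene annotated as weakly similar to the alkaline extracellular protease, the product of *XPR2*, was higher in the mutants. It had 1.68, 3.03 and 1.28 CPM in WT-vector and 1.66, 1.69 and 2.47 CPM in WT-4NAG. Libraries labelled Yl*rep1*Δ had 9.30, 14.2 and 5.09 CPM and those labelled Yl*ngs1*Δ 21.1, 11.4 and 9.48 CPM, all above every wild-type library. A single mutant group did not overlap with a single wild-type group for 31.4% to 43.2% of genes. No share was computed for all mutant against all wild-type libraries at once. The rise in Yl*ngs1*Δ was called (log2 fold change 2.87, SE 0.37, edgeR adjusted p = 0.00375) and remained called under all 16 alternatives. The rise in Yl*rep1*Δ was called at the edge of the threshold (2.31, SE 0.41, edgeR adjusted p = 0.0459). It was lost without Yl*rep1*Δ replicate 2 (1.90, edgeR adjusted p = 0.0731) and without WT-4NAG replicate 1, 2 or 3 (edgeR adjusted p = 0.227, 0.231 and 0.212). WT-4NAG against WT-vector gave −0.06 (edgeR adjusted p = 0.947) and Yl*ngs1*Δ against Yl*rep1*Δ 0.55 (edgeR adjusted p = 1.00). A08360 is a different gene from *XPR2* and its values say nothing of *XPR2*.

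**Figure D3:**
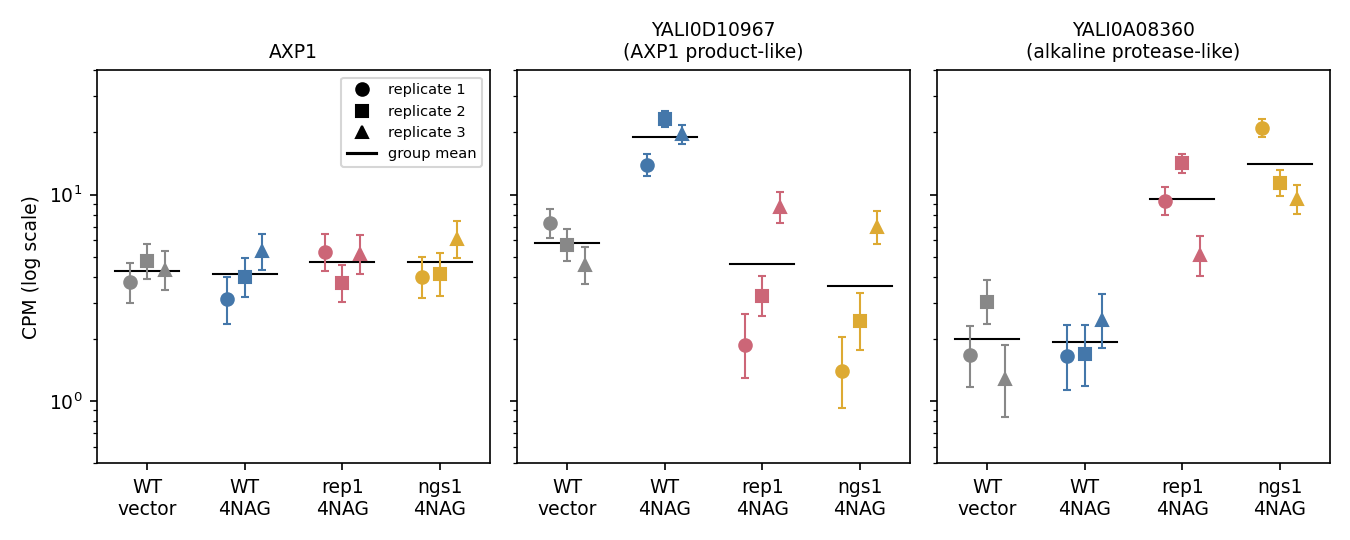
TMM-scaled CPM (log axis) of *AXP1*, D10967 and A08360 in the 12 libraries by group, with 95% exact Poisson intervals and group means. D10967 is highest in WT-4NAG (13.9 to 23.3 CPM) and A08360 in the mutants (5.09 to 21.1 CPM), while *AXP1* overlaps in all groups.

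The ratio of each gene to *AXP1* within a library does not depend on how libraries are scaled, and was added after seeing the data. The FPKM of D10967 was 1.04 to 1.90 times that of *AXP1* in WT-vector and 3.64 to 5.76 times in WT-4NAG. In Yl*rep1*Δ it was 0.350, 0.857 and 1.66 times and in Yl*ngs1*Δ 0.345, 0.585 and 1.12 times. D10967 was thus the more abundant of the pair in all 6 wild-type libraries and in replicate 3 of each mutant, and *AXP1* in the other 4. The mean log2 count ratio was −0.31 ± 1.13 in Yl*rep1*Δ and −0.69 ± 0.85 in Yl*ngs1*Δ (SD, n = 3), and differed from that of WT-4NAG (SD 0.33) by −2.51 and −2.89. In neither case did the groups overlap (exact two-sided permutation p = 0.1, the smallest that 3 against 3 allows). As D10967 and A08360 were chosen on these same samples and no lower p was possible, this permutation cannot decide whether the ratios differ. In CPM, groups did not overlap for 32.7% of genes in Yl*rep1*Δ and 42.8% in Yl*ngs1*Δ against WT-4NAG. No such share was computed for ratios to *AXP1*. The FPKM of A08360 was 0.220 to 0.476 times that of *AXP1* in the wild-type libraries. It was 1.31, 2.84 and 0.736 times in Yl*rep1*Δ and 3.94, 2.06 and 1.16 times in Yl*ngs1*Δ. A08360 thus exceeded *AXP1* in 5 of the 6 mutant libraries and in none of the 6 wild-type libraries. Its mean log2 count ratio was −1.08 ± 0.17 in WT-4NAG, 0.91 ± 0.98 in Yl*rep1*Δ and 1.50 ± 0.88 in Yl*ngs1*Δ, again with exact two-sided permutation p = 0.1 for either mutant.

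Both genes belong to 13 genes that the study's supplementary lists describe as similar to a protease, chosen there on these same samples, so their counts are not independent evidence of a direction. In libraries labelled Yl*rep1*Δ against WT-4NAG, edgeR called 3 of 13 higher and 0 lower, with a median log2 fold change of −0.99 against 0.01 over all genes. That count depends on the test, as DESeq2 called 7 of the 13. The study itself lists B20174, D10967, D22957, A13013 and E11715 as lower in Yl*rep1*Δ. Over all 6041 genes 64 were called higher and 20 lower (1.39%). The list's median is negative although all 3 edgeR calls are rises. In Yl*ngs1*Δ against WT-4NAG, 4 were higher and 5 lower, with a median of −1.39 against 0.02, where 324 of all 6040 genes were higher and 139 lower (7.67%). Between the mutants 0 of 12 tested were called, by edgeR, and in WT-4NAG against WT-vector only D10967 was.

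The genes called higher in both mutants were A08360, E20823 and D09042. E20823 (YALI0_E20823g) is annotated as weakly similar to *S. cerevisiae* Yps3, a yapsin, which is an aspartyl protease held at the cell surface. Its mean was 6.39 CPM in WT-4NAG, 34.0 CPM in Yl*rep1*Δ (log2 fold change 2.42, edgeR adjusted p = 0.0477) and 37.7 CPM in Yl*ngs1*Δ (2.57, 0.0259). The mutant libraries were uneven, at 19.5, 59.4 and 23.2 CPM in Yl*rep1*Δ and 74.1, 24.5 and 14.6 CPM in Yl*ngs1*Δ. By qRT-PCR, the study also reports a rise of E20823 in Yl*rep1*Δ. D09042 (YALI0_D09042g) is annotated as similar to Prc1, the vacuolar carboxypeptidase Y, which is not secreted. Its log2 fold changes were 1.66 in Yl*rep1*Δ (edgeR adjusted p = 0.0483) and 1.83 in Yl*ngs1*Δ (0.0241). The yapsin-like F10549 (YALI0_F10549g) was called higher in Yl*ngs1*Δ (1.56, edgeR adjusted p = 0.0316), at 1.42 to 3.10 CPM. That call rests on few reads, with counts of 60, 41 and 23 in Yl*ngs1*Δ and 17, 14 and 16 in WT-4NAG. WT-vector had counts of 31, 7 and 13, and its highest library, at 1.44 CPM, overlapped with Yl*ngs1*Δ.

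In Yl*ngs1*Δ the 5 genes with a called fall were D10967, the subtilisin-like F24453 (YALI0_F24453g) and the yapsin-like A13013, B20174 and C10923. The B20174 call rests on few reads, with counts of 20, 12 and 16 in WT-4NAG and 5, 1 and 3 in Yl*ngs1*Δ. WT-vector had counts of 11, 4 and 4. F24453, annotated as similar to *S. cerevisiae* Rrt12, had 6.63, 8.81 and 7.19 CPM in WT-4NAG and 1.60, 2.69 and 4.31 CPM in Yl*ngs1*Δ (log2 fold change −1.39, edgeR adjusted p = 0.0369). In WT-vector F24453 had 5.77, 5.93 and 3.98 CPM, which overlapped with Yl*ngs1*Δ. WT-4NAG was 1.44-fold above WT-vector, not called (edgeR adjusted p = 0.0879). A13013 (YALI0_A13013g) had 95.4, 98.1 and 106.5 CPM in WT-4NAG and 4.76, 23.3 and 30.6 CPM in Yl*ngs1*Δ (−2.35, edgeR adjusted p = 0.0328). Its levels in Yl*rep1*Δ were 27.2, 20.7 and 75.1 CPM, the highest again in replicate 3. Yapsin-like genes were therefore called in both directions in Yl*ngs1*Δ. D22957, D14300, E11715 and C23661 were not called by edgeR in any of the 4 comparisons. The study, by its own test, lists D22957 and E11715 as lower in Yl*rep1*Δ and D14300 as repressed by YlNgs1. Counts on this list moved with single libraries: for Yl*rep1*Δ against WT-4NAG, 1 gene was called without Yl*rep1*Δ replicate 2, 9 without Yl*rep1*Δ replicate 3 and 0 without WT-4NAG replicate 1, 2 or 3. For Yl*ngs1*Δ, 1 was called without Yl*ngs1*Δ replicate 2 or without WT-4NAG replicate 1, 2 or 3. The calls over all genes moved as well: for Yl*rep1*Δ they were 37 higher and 10 lower without its replicate 2, 269 and 163 without its replicate 3, and 1 and 0 without any single WT-4NAG library. For Yl*rep1*Δ these shifts were thus not particular to the list. For Yl*ngs1*Δ, 324 higher and 139 lower over all genes became 229 and 81 without its replicate 2. Without a single WT-4NAG library, 177 to 193 were higher and 71 to 83 lower. The list, which fell from 9 calls to 1 in Yl*ngs1*Δ, thus lost a larger share of its calls than all genes did. The cause was not tested.

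**Figure D4:**
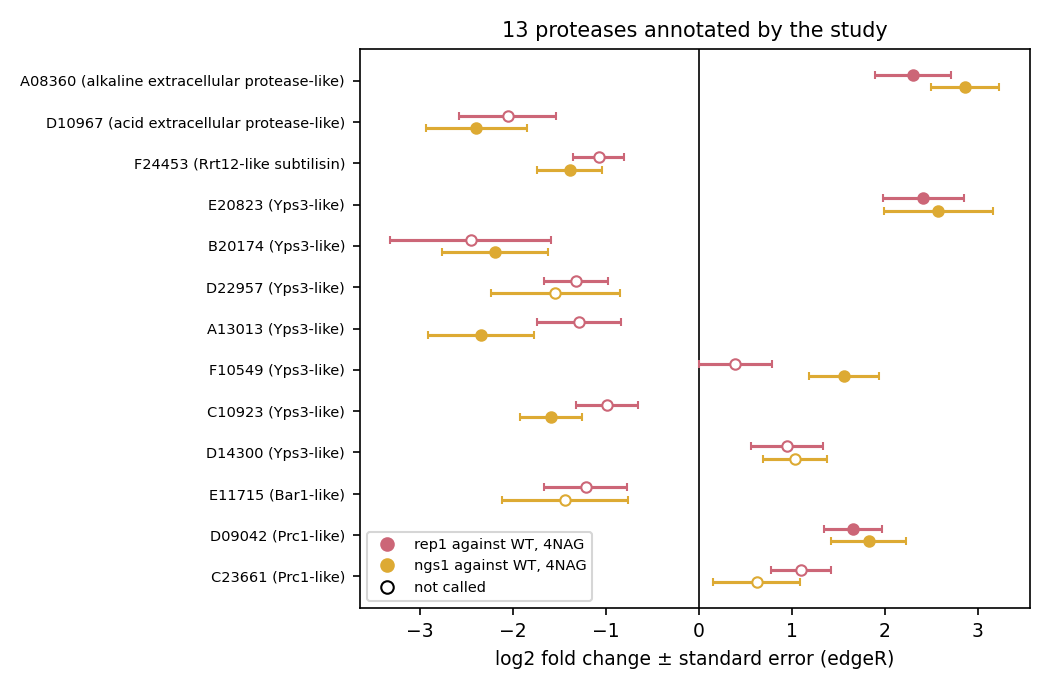
Log2 fold changes (x axis) with standard errors for the 13 genes described as protease-like, in either mutant against WT-4NAG. Filled points were called by edgeR. A08360, E20823 and D09042 lie to the right and are called in both, and 5 genes to the left are called in Yl*ngs1*Δ only by this threshold, a difference between the mutants that passed no test.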

How the data were processed

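The authors deposited 4 tables that give, for 12 libraries, counts (whole numbers) and FPKM per gene. Per the submitters' processing notes, Cufflinks 2.2.1 and TopHat2 2.1.1 were used and the build was mm10, a mouse genome; the counting program and annotation: not given in the sources used here. Of the 6400 genes, 24 were not in every table (20 counts at most) and were taken as 0. From the counts, groups were compared 3 against 3 with edgeR 4.0.16 in R 4.3.3 (TMM, filterByExpr, quasi-likelihood test, Benjamini-Hochberg over all genes tested), with the thresholds of the study's methods. The deposited FPKM values served only to compare levels between genes. The likeness rule took the 5 highest Pearson r of log2 CPM (prior count 2). Alternatives were DESeq2 1.42.0, its size factors, other filters and thresholds, a single fit of 12 libraries, a replicate block, limma 3.58.1 with quality weights, and leaving out each library; library totals without TMM were added after seeing the data. Members and lists were chosen with earlier results of these data known. Lists by protein similarity or by Rim pathway annotation were not used here. Figures were drawn in Python 3.11.15.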

Additional observations from a re-analysis of the deposited data

How the results depend on the processing

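The alternatives for *XPR2* were not run. No alternative called *AXP1* or *RIM101* in any comparison, and *RIM101* kept its direction in all 16 alternatives to each. *AXP1* changed sign in 3 of the 4 comparisons: in Yl*ngs1*Δ against Yl*rep1*Δ its log2 fold change of 0.0046 became −0.0018 with DESeq2, −0.0023 with DESeq2 size factors, −0.0069 with the replicate block, −0.024 with limma quality weights and −0.053 with library totals. Leaving out single libraries gave *AXP1* −0.23 to 0.11 there, −0.028 to 0.42 for Yl*ngs1*Δ and 0.02 to 0.41 for Yl*rep1*Δ against WT-4NAG, and −0.27 to 0.11 for WT-4NAG against WT-vector. The same ranges for *RIM101* were −0.29 to −0.02, 0.05 to 0.21, 0.13 to 0.40 and 0.04 to 0.17. D10967 ran from −1.26 to 0.47 between the mutants, and A08360 from −0.29 to 0.38 for WT-4NAG against WT-vector. Listed proteases called for Yl*rep1*Δ were 7 with DESeq2, 10 with an unadjusted p and 0 to 9 without single libraries, and for Yl*ngs1*Δ 1 to 11. Between the mutants 1 was called with an unadjusted p. For WT-4NAG against WT-vector 2 were called with an unadjusted p, 0 in a single fit of all libraries and 1 to 1 without single libraries. Same-numbered libraries did not pair: their deviations had r of −0.598 to 0.197, and in WT-4NAG against WT-vector, at 0.036 to 0.080, each correlated best with its own number. The replicate block called 74 genes higher and 27 lower for Yl*rep1*Δ against WT-4NAG, where 64 and 20 were called without it; A08360 was not called (edgeR adjusted p = 0.0605) and D10967 was (0.0411). Over all genes the calls for that comparison were 220 higher and 87 lower with DESeq2, 244 and 110 with an unadjusted p, 166 and 49 in a single fit and 140 and 73 with limma. Dropping Yl*rep1*Δ replicate 1 left 150 and 144, dropping replicate 2 left 37 and 10, dropping replicate 3 left 269 and 163, and dropping any single WT-4NAG library left 1 and 0. For Yl*ngs1*Δ they went from 324 and 139 to 662 and 414 with no fold threshold, and to 180 and 83, 177 and 71, and 193 and 80 without WT-4NAG replicate 1, 2 and 3. For WT-4NAG against WT-vector they went from 11 and 0 to 26 and 4 with an unadjusted p, 377 and 261 with no fold threshold and 0 and 0 in a single fit. Where these counts moved, the cause was not tested. For *AXP1*, counting error alone would give a coefficient of variation of 10.8%, where 19.1% was seen, and for *RIM101* 1.05%, where 15.5% was seen.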
